A study of Mus musculus with 4 samples.

Results

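C-type lectin receptors are membrane proteins of myeloid cells that bind sugars, lipids and other ligands of microbes and damaged cells through a shared lectin fold. 10 such genes were followed in tumor-associated macrophages (TAMs): Clec4a1, Clec4a2, Clec4a3, Clec4d, Clec4e, Clec4n, Clec5a, Clec7a, Clec10a and Clec12a. They were chosen by name, with earlier results of these data known. Matched by Ensembl identifier to GENCODE release M21, they made up 10 of the 54146 genes counted. The 10 genes all passed the filter on low counts that left 14688 genes to test.

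Cells positive for CD11b and F4/80, the TAMs of these data, were sorted alive from the CD45+ fraction of MCA205 fibrosarcomas grown under the skin of female C57BL/6 mice of 8 to 16 weeks. MCA205 is a transplanted mouse sarcoma line and propranolol is a nonselective blocker of beta-adrenergic receptors. The control group (labelled vehicle) and the propranolol group, which received 0.5 g/L of the drug in the drinking water from the day of inoculation, had 2 libraries each. Both groups carried the same tumor, and nothing in the sources used here says whether a library came from 1 mouse or from several, so p-values measure the spread between these libraries only. Total counts were 13798249 and 23018142 in control replicates 1 and 2, and 39818103 and 16424081 in propranolol replicates 1 and 2. The sorting markers were present in every library. Adgre1, which encodes F4/80, stood at 975 and 1008 CPM (counts relative to library size after TMM normalization) in control and at 1151 and 1100.0 CPM in propranolol TAMs, and Itgam, which encodes CD11b, at 359, 352, 369 and 313 CPM.

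The receptors differ in how they signal. Activating members carry or borrow an immunoreceptor tyrosine-based activation motif (ITAM): Clec4d, Clec4e and Clec4n pair with the FcR gamma chain (Fcer1g), Clec5a pairs with DAP12 (Tyrobp), and Clec7a has a single-tyrosine motif in its own tail. All of these engage the kinase Syk, and the adaptor Card9 then links Syk to NF-kB and to cytokine and chemokine genes. Clec4a2 and Clec12a carry inhibitory motifs (ITIMs) that recruit the phosphatases encoded by Ptpn6 and Ptpn11.

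In propranolol TAMs Clec4d and Clec4e were higher, at 2.01-fold and 1.56-fold, and Clec12a, Clec7a and Clec4a3 were lower, by 1.94-fold, 1.87-fold and 1.71-fold. Thus 5 of the 10 receptors were called changed (edgeR adjusted p under 0.05 and more than 1.5-fold), 2 upward and 3 downward, where 27.8% of all tested genes were called, 12.2% upward and 15.6% downward. The fold changes of all genes moved with GC content, and among genes of the receptors' GC range 38.5% were called lower. When the GC trend of each library was removed, Clec4d, Clec4e and Clec4a2 were called higher and 0 receptors lower. In CPM the groups did not overlap for 9 receptors, 3 with propranolol above and 6 below, while 72.6% of all tested genes had groups that did not overlap, 35.8% above and 36.9% below. At an adjusted p under 0.05 alone, 7 receptors passed, beside 42.2% of all tested genes. The median log2 fold change was -0.39 over the 10 receptors and -0.02 over all tested genes. In bulk libraries such as these, fewer cells with a transcript and less of it per cell cannot be told apart. Exact permutation of 2 against 2 libraries cannot give a p below 0.333, so the tests rest on the edgeR model across all genes.

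The upstream sequences of the changed receptors are shown for the genes that rose, Clec4d and Clec4e, and for Clec7a, which fell, with the 250 bases before the RefSeq start site on GRCm38.p6, 5' to 3' on the strand of the gene. Capitals mark GAGGAA, a core bound by the myeloid factor PU.1, and TTGCNNAA, a C/EBP motif, in either orientation. The windows lie at chr6:123261857-123262106 on the plus strand, chr6:123289872-123290121 on the minus strand and chr6:129472780-129473029 on the minus strand, and none of them overlaps an exon of GENCODE M21.

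Clec4d: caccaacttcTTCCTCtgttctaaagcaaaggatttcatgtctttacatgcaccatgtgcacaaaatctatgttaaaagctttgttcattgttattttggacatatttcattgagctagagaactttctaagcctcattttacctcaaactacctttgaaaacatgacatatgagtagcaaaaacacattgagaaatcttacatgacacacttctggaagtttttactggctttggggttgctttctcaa

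Clec4e: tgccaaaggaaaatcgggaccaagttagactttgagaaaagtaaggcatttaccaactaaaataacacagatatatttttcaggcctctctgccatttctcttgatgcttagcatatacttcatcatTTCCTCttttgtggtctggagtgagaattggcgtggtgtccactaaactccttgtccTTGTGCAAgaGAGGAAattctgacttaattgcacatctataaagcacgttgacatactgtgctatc

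Clec7a: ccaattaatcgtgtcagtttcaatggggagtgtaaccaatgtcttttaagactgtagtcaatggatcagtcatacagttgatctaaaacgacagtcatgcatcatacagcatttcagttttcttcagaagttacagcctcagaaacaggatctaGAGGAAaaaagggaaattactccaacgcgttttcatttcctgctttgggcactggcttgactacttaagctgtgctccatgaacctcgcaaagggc

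In Clec4e the 2 GAGGAA matches began 123 and 56 bases before the start site and the TTGCNNAA match 66 bases before it. Clec4d had a single GAGGAA match, 240 bases before its start site, and Clec7a a single match, 96 bases before. RefSeq windows were found for 8 of the 10 receptors. GAGGAA also occurred before Clec5a, Clec4a1 and Clec12a and in 1 of 2 windows of Clec4a3, whereas Clec4a2 had none. TTGCNNAA also occurred before Clec12a, which alone had TGANTCA, the AP-1 motif, and TGACGTCA, the cyclic AMP response element, occurred before none of the 8. Among 32851 RefSeq windows of the same length, 23.25% held GAGGAA, 9.564% TTGCNNAA, 6.749% TGANTCA and 1.546% TGACGTCA. A match is a description of the letters and not a site of binding.

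Per transcript length, the mean levels of the receptors spanned more than an order of magnitude in control TAMs and slightly less in propranolol TAMs. Levels between genes are given as TPM, which scales the counts by the length of all exons of a gene before scaling by the library. TPM does not use the TMM factors, so propranolol values stand lower against control than they do in CPM. Changes between groups are therefore read from CPM and the fold changes. In control TAMs Clec4a1 was highest with 354 ± 48.5 TPM (SD, n = 2), followed by Clec4a3 with 309 ± 9.54, Clec4n with 274 ± 30.3 and Clec7a with 244 ± 0.334 TPM. Clec4a2, Clec12a and Clec5a lay at 116 ± 2.68, 100.3 ± 9.97 and 99.5 ± 12.8 TPM, then Clec4d at 61.1 ± 5.75, Clec10a at 35.0 ± 6.65 and Clec4e at 19.7 ± 2.31 TPM. In this order only the neighbours Clec12a and Clec5a overlapped between libraries. The order depended on the length used. With the length of the longest transcript, Clec7a (220 TPM) stood above Clec4n (215 TPM) and overlapped with it. Clec12a (133 TPM) then stood above Clec4a2 (107 TPM).

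In propranolol TAMs Clec4n led with 255 ± 37.7 TPM and overlapped with Clec4a1 at 234 ± 38.6 TPM. Clec4a3 stood at 153 ± 22.2, Clec7a at 109 ± 39.3 and Clec4d at 103 ± 11.4 TPM, and Clec7a overlapped with both of these neighbours. Clec4d had thus moved from the eighth to the fifth place. Clec4a2, Clec5a, Clec12a and Clec10a followed with 73.0 ± 11.9, 57.6 ± 12.9, 43.5 ± 10.5 and 39.2 ± 0.444 TPM, each overlapping with the next, and Clec4e was last with 25.9 ± 2.17 TPM. Summed over the 10 receptors the level was 1608 and 1619 TPM in the control and 1225 and 961 TPM in the propranolol libraries. With TMM normalization the fall was smaller, from 1089 and 1060 CPM in control to 941 and 698 CPM in propranolol libraries. Clec4d and Clec4e together took 5.38% and 4.64% of this sum in control and 11.3% and 12.5% in propranolol libraries, whereas Clec7a and Clec12a took 20.96% and 21.7%, and 15.3% and 12.2%.

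**Figure D1:**
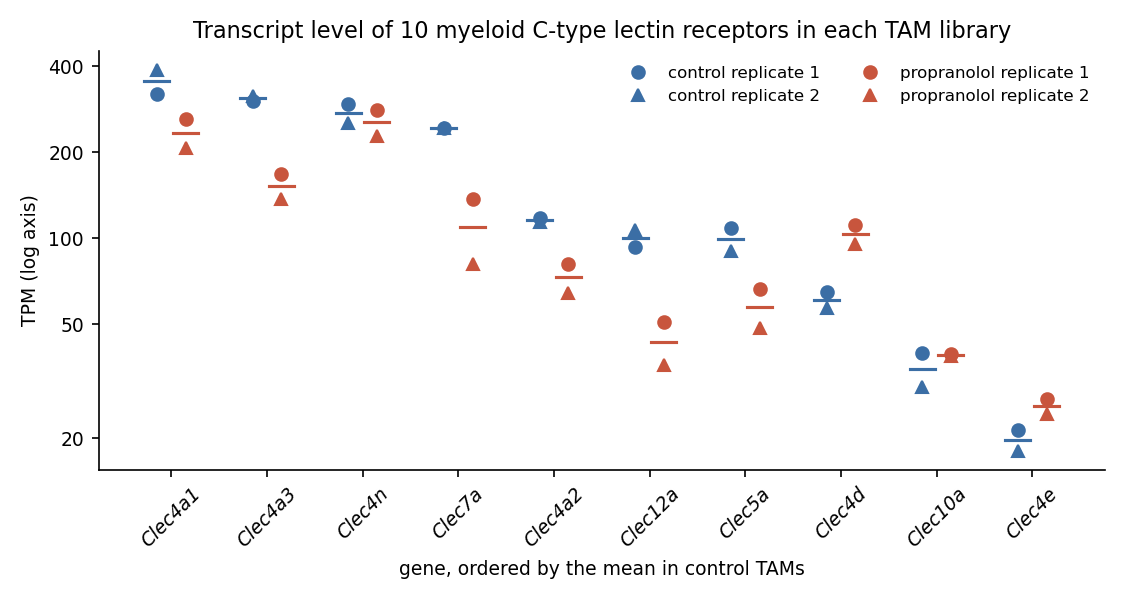
Level of each receptor in TPM (log axis) in each TAM library, with circles for replicate 1, triangles for replicate 2 and a line at the mean of each group. Clec4d and Clec4e lie higher in propranolol than in control TAMs, and Clec4a3, Clec7a and Clec12a lie lower.

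Among the receptors that pair with the FcR gamma chain, Clec4d (MCL) and Clec4e (Mincle) rose and Clec4n (Dectin-2) was not called. MCL and Mincle form a heterodimer that recognizes mycobacterial glycolipids, and Mincle also senses a nuclear protein released from dead cells. Clec4d (ENSMUSG00000030144.4, chr6:123262111-123275265, plus strand) had 31.8 and 27.1 CPM in the control libraries and 64.5 and 53.0 CPM in the propranolol libraries. Both propranolol libraries stood well above both control libraries, with a log2 fold change of 1.01 (SE 0.14, edgeR adjusted p = 0.000496). In this fit that change was the largest in size of the 10 receptors. With upper-quartile factors Clec12a was larger (-1.02 against 0.95), and without propranolol replicate 1 so were Clec7a (-1.37) and Clec12a (-1.26) against 0.86. Clec4e (ENSMUSG00000030142.10, chr6:123281789-123289870, minus strand) had 32.4 and 26.6 CPM in control and 49.4 and 42.2 CPM in propranolol libraries. The groups again did not overlap, with a log2 fold change of 0.64 (SE 0.14, edgeR adjusted p = 0.00505). This value lies close to the threshold of 1.5-fold, and Clec4e fell below it without control replicate 2 (log2 fold change 0.52) and without propranolol replicate 1 (0.52). Its call also ended with upper-quartile factors (0.58) and in the edgeR glmTreat test against 1.5-fold (adjusted p = 0.500). The ratio of Clec4d to Clec4e counts was 0.983 and 1.02 in control and 1.31 and 1.26 in propranolol libraries.

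Clec4n (ENSMUSG00000023349.14, chr6:123229843-123247021, plus strand), a receptor for fungal mannans, had 128 and 107 CPM in control and 145 and 113 CPM in propranolol libraries. In CPM it was the only receptor whose groups overlapped, whereas in TPM those of Clec10a overlapped too. The log2 fold change of Clec4n, 0.14 (SE 0.14), did not pass the test (edgeR adjusted p = 0.439). With the GC trend of each library removed the value was 0.49 (edgeR adjusted p = 0.0223), under 1.5-fold. The partner of these 3 receptors, Fcer1g, was abundant and likewise not called, with 581 and 568 CPM in control and 698 and 563 CPM in propranolol libraries (log2 fold change 0.13, SE 0.11, edgeR adjusted p = 0.363).

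Clec7a (Dectin-1), the receptor for fungal beta-glucans, was lower in propranolol TAMs. Clec7a (ENSMUSG00000079293.11, chr6:129461591-129472779, minus strand) had 196 and 191 CPM in control and 131 and 74.8 CPM in propranolol libraries. The control libraries were nearly equal, and propranolol replicate 2 lay far below replicate 1. The log2 fold change was -0.90 (SE 0.20, edgeR adjusted p = 0.00546), and without propranolol replicate 2 it was -0.53, below the fold threshold. It was -0.12 and not called with the GC trend of each library removed, and the call also ended in the edgeR glmTreat test (adjusted p = 0.151). For each Clec4d count there were 6.17 and 7.06 Clec7a counts in control and 2.03 and 1.41 in propranolol libraries. GENCODE M21 classes Clec7a as a polymorphic pseudogene, a class for genes that are intact in some strains or individuals only.

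Clec5a (ENSMUSG00000029915.14, chr6:40574894-40585821, minus strand), an activating receptor of monocytes and macrophages, had 127 and 103 CPM in control and 92.9 and 64.9 CPM in propranolol libraries. The propranolol libraries were both below the control libraries (log2 fold change -0.54, SE 0.17, edgeR adjusted p = 0.0249), but the change was under 1.5-fold and was not called. Its partner Tyrobp stood at 462 and 465 CPM in control and at 701 and 622 CPM in propranolol libraries (log2 fold change 0.51, SE 0.10, edgeR adjusted p = 0.00216), which was also under 1.5-fold. Neither was called. Removal of the GC trend gave 0.45 for Clec5a (edgeR adjusted p = 0.0493) and 0.23 for Tyrobp (edgeR adjusted p = 0.128).

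Of the receptors with an inhibitory motif, Clec12a fell and Clec4a2 was not called. Clec12a (MICL), which binds uric acid crystals and dampens responses to dead cells, is at chr6:129342691-129365303 on the plus strand (ENSMUSG00000053063.11). It had 158 and 176 CPM in control and 102 and 69.4 CPM in propranolol libraries. These groups were well separated, with a log2 fold change of -0.96 (SE 0.16, edgeR adjusted p = 0.00122). The call ended with the GC trend of each library removed (-0.22, edgeR adjusted p = 0.293) and in the edgeR glmTreat test against 1.5-fold (adjusted p = 0.0626). Clec4a2 (DCIR, ENSMUSG00000030148.15, chr6:123106428-123143999, plus strand) had 106 and 99.4 CPM in control and 86.3 and 65.8 CPM in propranolol libraries. The groups did not overlap, and the log2 fold change of -0.42 (SE 0.13, edgeR adjusted p = 0.0266) was smaller than 1.5-fold. Its direction turned, to 0.85, when the GC trend was removed, and Clec4a2 was then called higher (edgeR adjusted p = 0.00121). Of the 50-base stretches of the longest Clec4a2 transcript, 8.92% also occurred in another gene, mainly in Clec4a4 and Clec4b1, so reads of these genes could be lost to the filter on mapping quality or be hard to assign.

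Clec4a1 and Clec4a3 are close relatives of Clec4a2 that lack its inhibitory motif. Clec4a3 (ENSMUSG00000043832.13, chr6:122952515-122969875, plus strand) had 122 and 124 CPM in control and 80.9 and 63.3 CPM in propranolol libraries. It was lower in both propranolol libraries by a clear margin (log2 fold change -0.77, SE 0.13, edgeR adjusted p = 0.00107), although without propranolol replicate 2 the value was -0.58 and under the fold threshold. It was -0.04 and not called with the GC trend removed, and the call also ended in the edgeR glmTreat test (adjusted p = 0.169). Clec4a1 (ENSMUSG00000049037.8, chr6:122921848-122934619, plus strand) had 152 and 179.7 CPM in control and 147 and 112 CPM in propranolol libraries. Propranolol replicate 1 lay just under control replicate 1, and the log2 fold change of -0.35 (SE 0.14) did not pass the test (edgeR adjusted p = 0.0645) and turned to 0.06 with the GC trend removed.

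Clec10a (MGL1, ENSMUSG00000000318.16, chr11:70156197-70170834, plus strand), a receptor for galactose and N-acetylgalactosamine that is used as a marker of alternatively activated macrophages, had 35.2 and 26.1 CPM in control and 41.5 and 39.2 CPM in propranolol libraries. Both propranolol values were above both control values, yet the log2 fold change of 0.41 (SE 0.15) missed the threshold (edgeR adjusted p = 0.055). Without control replicate 1 it was 0.69 and called. Its neighbouring paralog Mgl2, which shares 10.6% of the 50-base stretches of Clec10a, had 214 and 216 CPM in control and 286 and 203 CPM in propranolol libraries (log2 fold change 0.19, SE 0.14, edgeR adjusted p = 0.333).

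The GC content of a gene moved with its fold change in these libraries, and the receptors lie in the GC-poor range. Across 14681 tested genes, which are not independent replicates and share the same 4 libraries, Spearman's correlation of log2 fold change with the GC content of the longest transcript was 0.577. The receptors had a median GC content of 41.2%, from 36.8% for Clec4a2 to 49.9% for Clec10a, against a median of 49.6% over tested genes. Of the 3942 tested genes between 36.8% and 45.4% GC, the range of all receptors but Clec10a, 38.5% were called lower and 1.07% higher, with a median log2 fold change of -0.61 and 87.3% of values below 0. Clec12a, Clec7a and Clec4a3 thus lay near the median of genes of like GC content, and Clec4d and Clec4e lay above it.

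When the GC trend of each library was removed, 3 receptors were called higher and 0 lower, against 7.65% and 4.99% of all tested genes (12.6% in either direction). Clec4d had a log2 fold change of 1.83 (edgeR adjusted p = 0.000177), Clec4e of 1.35 (edgeR adjusted p = 0.000346) and Clec4a2 of 0.85 (edgeR adjusted p = 0.00121). The 3 receptors that had been lower were no longer called, with -0.12 for Clec7a and -0.04 for Clec4a3 (edgeR adjusted p = 0.672 and 0.802) beside the value given for Clec12a. Clec4a1, Clec4a2 and Clec5a changed sign, to 0.06, 0.85 and 0.45. The removal raised the median of all tested genes from -0.02 to 0.09, and that of the receptors from -0.39 to 0.43. The direction of Clec4d and Clec4e was therefore the same under both treatments of the counts, and that of the other called receptors was not called in either direction once the trend was removed. Whether GC content had a part in the differences was not tested.

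**Figure D2:**
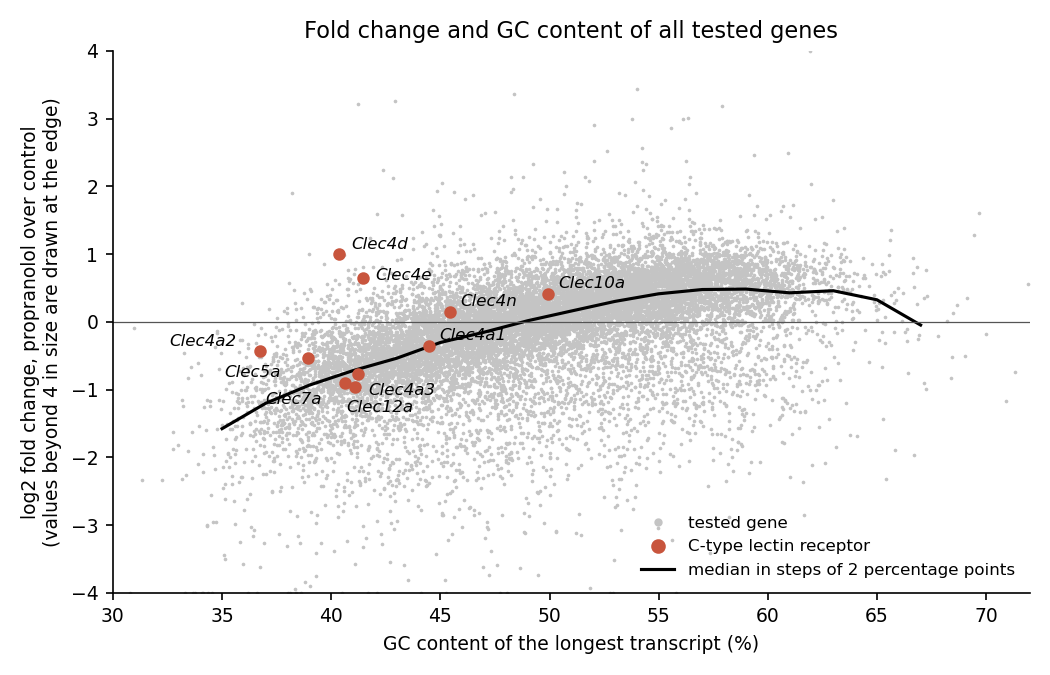
Log2 fold change of propranolol over control against the GC content of the longest transcript in percent, for all tested genes (grey), the 10 receptors (red) and the median of all tested genes in steps of GC content (black line). Clec4d and Clec4e lie above the line, and Clec7a, Clec12a and Clec4a3 lie close to it.

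**Figure D3:**
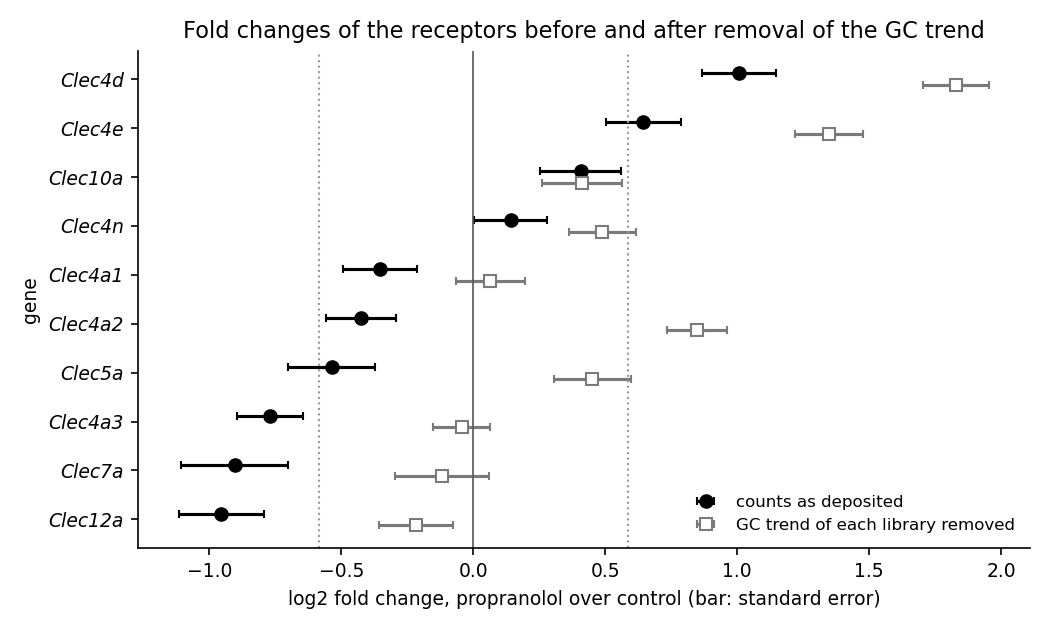
Log2 fold change of each receptor with its standard error, from the counts as deposited (black circles) and with the GC trend of each library removed (open squares), with dotted lines at 1.5-fold. Clec4d moved from 1.01 to 1.83 and Clec4e from 0.64 to 1.35, while Clec12a, Clec7a and Clec4a3 moved toward 0.

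Among the signalling genes behind the receptors, Card9 had the largest change. Of 27 listed adaptors, kinases and NF-kB or NFAT genes, all tested, 4 rose and 1 fell, with a median log2 fold change of 0.35. Of all tested genes 12.2% were higher and 15.6% lower, so the counts of the list are near or below the background and are no result about the list. Card9, the adaptor downstream of Syk, had 65.5 and 81.3 CPM in control and 157 and 192 CPM in propranolol libraries (log2 fold change 1.24, SE 0.14, edgeR adjusted p = 0.00018). Its groups were far apart, and it was also called with the GC trend removed (0.91, edgeR adjusted p = 0.00129). An annotated gene, Gm13562, overlaps it, and the methods name no strand option for the counting. Prkcd, the kinase that phosphorylates Card9, rose by a log2 fold change of 0.65 (edgeR adjusted p = 0.000968), the Src-family kinase Fgr by 0.64 (edgeR adjusted p = 0.00162) and the phospholipase Plcg2 by 0.60 (edgeR adjusted p = 0.000848). Rel, an NF-kB subunit, fell by 0.64 on the log2 scale (edgeR adjusted p = 0.00394). Syk itself had 266 and 279.7 CPM in control and 350.4 and 388 CPM in propranolol libraries and stayed under 1.5-fold (log2 fold change 0.44, SE 0.10, edgeR adjusted p = 0.00557). With the GC trend removed 4 of the list were called higher and 0 lower, beside 7.65% and 4.99% of all tested genes. Card9 was the only gene called in both fits. Fgr and Plcg2 lost their calls with upper-quartile factors, Plcg2 with the stricter filter on low counts, and Rel with no filter. Rel was not called without control replicate 2, Rel and Fgr not without propranolol replicate 1, and Plcg2 not without propranolol replicate 2.

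Among 5 listed inhibitors of the pathway, Cblb fell and none rose, a share near the 15.6% lower and 12.2% higher of all tested genes. Cblb, a ubiquitin ligase that limits signalling from these receptors, had 42.5 and 43.8 CPM in control and 24.2 and 25.0 CPM in propranolol libraries (log2 fold change -0.82, SE 0.12, edgeR adjusted p = 0.000657). With the GC trend removed its value was -0.56, under the fold threshold. Ptpn6 and Inpp5d, phosphatases that act on inhibitory signals, had log2 fold changes of 0.35 and 0.46 (edgeR adjusted p = 0.0182 and 0.00355), both under 1.5-fold.

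Of 18 listed genes that these receptors are known to induce, 14 were tested, 6 rose and 0 fell, with a median log2 fold change of 0.55, beside 12.2% and 15.6% of all tested genes. The 6 were the neutrophil-attracting chemokines Cxcl2 and Cxcl1, the monocyte-attracting Ccl2, the inflammasome sensor Nlrp3, the nitric oxide synthase Nos2 and the transcription factor Egr2. Cxcl2 had 59.0 and 69.1 CPM in control and 154 and 194 CPM in propranolol libraries (log2 fold change 1.44, SE 0.13, edgeR adjusted p = 0.000103). Ccl2 had 199.5 and 238 CPM in control and 513 and 436 CPM in propranolol libraries (log2 fold change 1.12, SE 0.12, edgeR adjusted p = 0.000167). For both chemokines the propranolol libraries lay far above the control libraries. Nlrp3 rose by 0.84, Nos2 by 0.64 and Egr2 by 0.61 on the log2 scale (edgeR adjusted p = 0.000253, 0.00174 and 0.00518). Cxcl1 was scarce, at 2.97 and 2.51 CPM in control and 4.98 and 6.16 CPM in propranolol libraries, and had a log2 fold change of 1.02 (SE 0.31, edgeR adjusted p = 0.0221). Il12b, a cytokine subunit, had a value in the other direction (log2 fold change -1.07, edgeR adjusted p = 0.0656), and it was called lower with limma-voom, with the stricter filter on low counts and without control replicate 1. The 4 genes not tested for low counts were Il6, Il23a, Csf2 and Csf3. With the GC trend removed 8 of the list were higher and 0 lower, beside 7.65% and 4.99% of all tested genes. Nos2 (0.39) and Egr2 (0.51) were then under the fold threshold, and Il10, Il1b, Il1rn and Ptgs2 were called in addition. Nos2 and Egr2 also lost their calls with upper-quartile factors. Egr2 was not called without control replicate 1 or without propranolol replicate 1, nor Cxcl1 without control replicate 2 or without propranolol replicate 2. Many other stimuli induce the same genes. The list was also chosen with earlier results of these data known, so its counts are a description only.

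**Figure D4:**
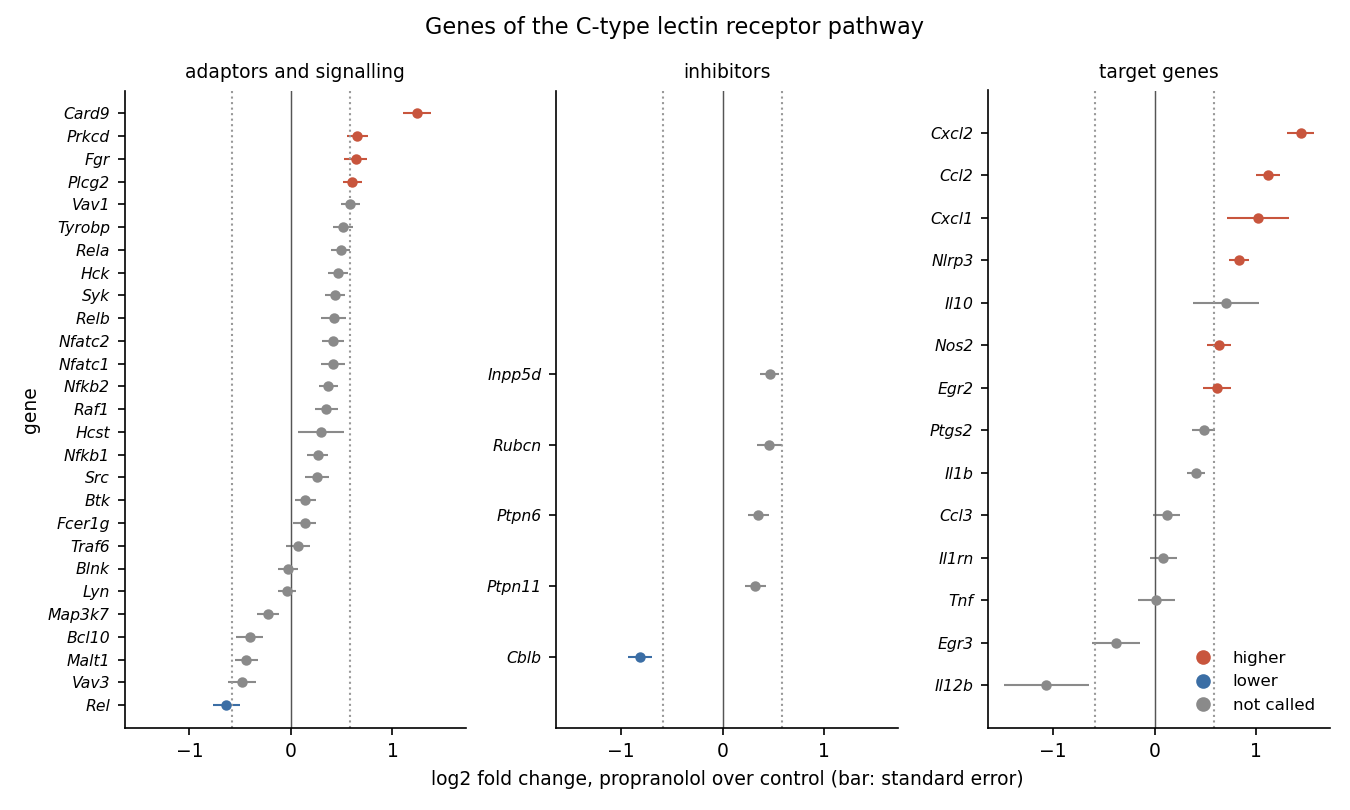
Log2 fold change of propranolol over control with its standard error for the tested genes of the signalling, inhibitor and target lists, with dotted lines at 1.5-fold and colors for genes called higher (red), lower (blue) or not called (grey). Card9 and Cxcl2 stand highest in their lists, and Cblb is the only inhibitor that was called.

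Of 38 other C-type lectin genes, 25 were tested, 1 rose and 9 fell, with a median log2 fold change of -0.17, beside 12.2% higher and 15.6% lower of all tested genes. Thbd, which encodes thrombomodulin, rose by 0.79 on the log2 scale (edgeR adjusted p = 0.00384). The genes with the largest decreases were Klrb1b, an NK cell receptor, at -1.70, Mrc2, a collagen receptor of mesenchymal cells, at -1.57, Colec12, a scavenger receptor, at -1.57, Clec9a, a receptor of cross-presenting dendritic cells, at -1.52, Clec2i at -1.50, Ly75, an endocytic receptor of dendritic cells, at -1.49, and Cd209a at -1.02 (edgeR adjusted p from 0.000642 to 0.0285). Cd69 and Clec2d made up the 9, with -0.88 and -0.73. Control replicate 1 stood above control replicate 2 for Mrc2 (34.7 and 15.6 CPM) and Colec12 (18.0 and 5.58 CPM). Colec12 and Cd209a were not called without control replicate 1, Cd209a not without propranolol replicate 2, and Clec9a and Clec2i not without control replicate 2. The macrophage mannose receptor Mrc1 was the most abundant of the list, with a mean of 1335 CPM in control and 1683 CPM in propranolol TAMs, and was not called (log2 fold change 0.33), but was called higher with the GC trend removed (0.85, edgeR adjusted p = 0.000713). With the GC trend removed 3 of the list were higher, Mrc1 and Thbd among them, and 4 lower, beside 7.65% and 4.99% of all tested genes. Of the 9 decreases, those of Cd209a, Cd69, Clec2d, Clec2i and Colec12 were then not called, and Cd69 turned to 0.50. Clec4f, Clec14a and Clec18a had 0 counts in every library.

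Apart from Clec5a and Clec10a, the receptors sit in clusters. The called neighbours of the Clec4 genes went both ways, and those of Clec12a and Clec7a were all lower. Clec4a1, Clec4a3, Clec4a2, Clec4n, Clec4d and Clec4e lie within 368.023 kb of chromosome 6 that holds 13 annotated genes. Clec4d and Clec4e are 6.523 kb apart on opposite strands with their 3' ends facing each other. The only other gene tested there was Clec4b1 (log2 fold change 0.06, edgeR adjusted p = 0.908). Of the 10 nearest tested genes on either side of the cluster, none was called before it, and after it the scavenger receptor Cd163 was higher (0.96) and the complement gene C1s1 lower (-2.07). Clec12a and Clec7a bound a stretch of 130.089 kb in the natural killer gene complex, in which Clec9a was lower. Of the 10 nearest tested genes on either side of that stretch, 5 were lower before it and 7 after it, with none higher. Of all tested genes 15.6% were lower and 12.2% higher, and of those in the receptors' GC range 38.5% were lower. The 7 after the stretch were the killer cell lectin-like receptor genes Klrd1, Klrc1, Klri2, Klre1, Klrc2, Klri1 and Klrk1, with log2 fold changes from -3.24 to -1.88. The GC trend moved with these values too. With it removed Klrd1 stood at -1.86 and Klre1 at -1.99, but Klrc2 at -0.89 and Klrk1 at -0.05. Cd69, of the genes before the stretch, turned from -0.88 to 0.50. Klrd1 is also among the T and NK cell markers given below, of which 11 of 12 fell.

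The tested genes whose profile over the 4 libraries was nearest to that of Clec4d, by the distance of centred log2 CPM, were Anxa2 (0.0716), Pard6a (0.0813) and Acy1 (0.084). Anxa2, a membrane-binding annexin, had 278.6 and 253 CPM in control and 571 and 474 CPM in propranolol libraries. Nearest to Clec4a1, the receptor with the highest mean level, were St7 (0.0355), Syce2 (0.0382) and Gm9917 (0.0493). With 4 libraries such likeness is a description only.

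Markers of other cells moved with the groups. Their counts stand beside 12.2% higher and 15.6% lower of all tested genes, and beside 7.65% and 4.99% with the GC trend removed. Of 16 neutrophil markers 11 were tested, 8 rose and 0 fell (9 and 0 with the GC trend removed), and the summed CPM of the list was 257 and 274 in control and 542 and 584 in propranolol libraries. Its most abundant gene was Csf3r, the G-CSF receptor, with means of 113 and 167 CPM, while S100a9 had 19.2 and 21.05 CPM in control and 83.8 and 82.4 CPM in propranolol libraries. Ly6g, the defining marker of mouse neutrophils, had 0 and 2 counts in control and 17 and 8 counts in propranolol libraries, and Ly6g, Camp, Ngp, Elane and Mpo were too low to test. Of 9 monocyte markers 4 rose and 0 fell, also with the GC trend removed, with sums of 3285 and 2968 CPM in control and 5417 and 4694 CPM in propranolol libraries and Fn1 as the most abundant gene (2173 and 3983 CPM on average). The defining markers of inflammatory monocytes were not called, with a log2 fold change of 0.43 for Ly6c2 and of -0.58 for Ccr2 (edgeR adjusted p = 0.00249, just under 1.5-fold), which turned to 0.36 with the GC trend removed. The sort on F4/80 selects against neutrophils, which largely lack it, and the methods state that the purity of the sorted cells was checked. How many neutrophils remained is not known from these counts. Neutrophils and monocytes are known to express Clec4d and Clec4e, and the part of these cells in the rise of both receptors was not tested.

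Of 11 dendritic cell markers 0 rose and 5 fell, beside 15.6% lower of all tested genes, and 2 were lower with the GC trend removed. The list had sums of 121 and 109 CPM in control and 83.4 and 70.5 CPM in propranolol libraries. The most abundant was Fscn1 (42.0 and 26.7 CPM on average), and among the defining markers Xcr1 had a log2 fold change of -1.30 (edgeR adjusted p = 0.0125, and -0.67 with the GC trend removed, edgeR adjusted p = 0.171) and Flt3 one of -0.98 (edgeR adjusted p = 0.0536). Zbtb46 and Batf3 were not called and their groups overlapped, with log2 fold changes of -0.24 and 0.07 (edgeR adjusted p = 0.613 and 0.791). Of 12 T and NK cell markers 0 rose and 11 fell (10 with the GC trend removed), from 426 and 477 CPM in sum in control to 205 and 111 CPM in propranolol libraries, with Gzmb as the most abundant (105 and 39.8 CPM on average), Cd3e at a log2 fold change of -1.43 and Ncr1 at -1.73. The marker that did not fall was Cd4, with 13.2 and 13.4 CPM in control and 16.3 and 17.0 CPM in propranolol libraries (log2 fold change 0.32, edgeR adjusted p = 0.138). Propranolol replicate 2 was the lowest library for the T and NK cell sum and for the dendritic cell sum. It was also the lowest for the 6 receptors whose propranolol libraries lay below control (Clec4a1, Clec4a2, Clec4a3, Clec5a, Clec7a and Clec12a). This was not particular to them, as replicate 2 lay below propranolol replicate 1 for Clec4d, Clec4e, Clec4n and Clec10a too. The same held for the monocyte and macrophage sums, but not for the neutrophil, B cell and stroma sums. The sort on CD11b and F4/80 selects against many dendritic cells, those with Xcr1 in particular, and how many remained is not known from these counts. Dendritic cells are known to express Clec7a and Clec12a, and their part in the decreases of both was not tested.

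Of 12 macrophage markers 1 rose and 0 fell, a share not above the 12.2% of all tested genes. The gene was Csf1r (0.59), which was not called with the GC trend removed (0.32). Most of the list nevertheless lay higher, with a median log2 fold change of 0.30 (0.25 with the GC trend removed). Both propranolol libraries were above control for 10 markers and below for 1, beside 35.8% and 36.9% of all tested genes. The list had sums of 32869 and 31298 CPM in control and 41605 and 40536 CPM in propranolol libraries and Apoe as the most abundant gene (10350.1 and 14626 CPM on average). The markers of stroma and endothelium added up to 2840.2 and 1093 CPM in control and 698 and 745 CPM in propranolol libraries, with 5 of 10 lower and 1 higher (5 and 0 with the GC trend removed) and Col3a1 as the most abundant (859 and 218 CPM on average). Control replicate 1 stood apart from control replicate 2 in this list. Of 6 B cell markers 3 were tested, 1 rose and 1 fell, and none was called with the GC trend removed. The B cell list summed to 159 and 183 CPM in control and 184 and 196 CPM in propranolol libraries, mostly from Ighm (159.6 and 170.2 CPM on average). No marker of the 7 lists was at 0 in every library.

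**Figure D5:**
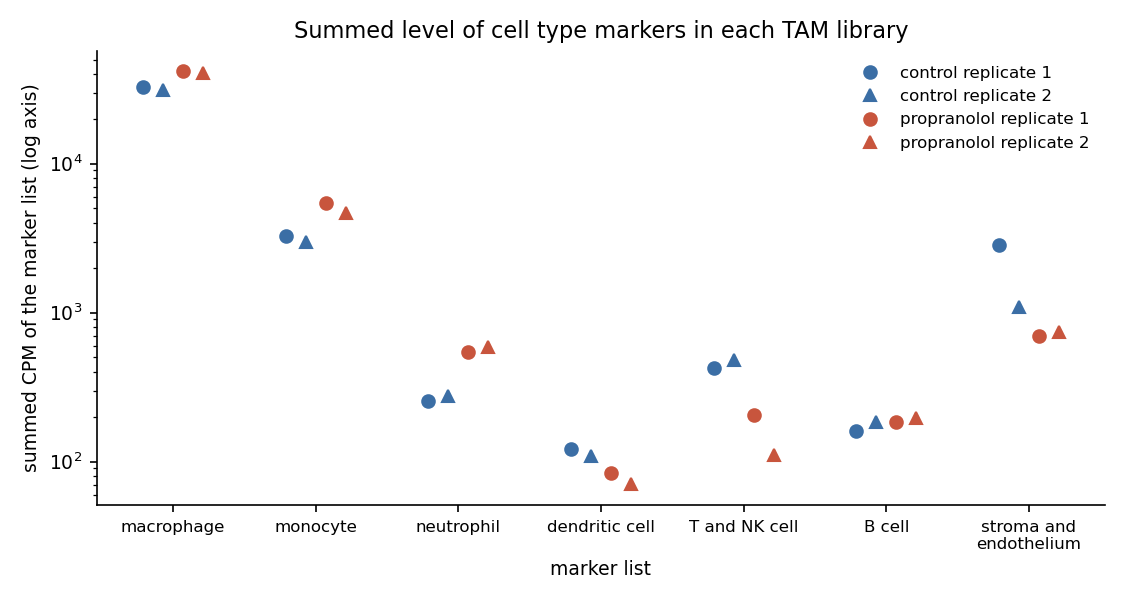
Summed CPM (log axis) of 7 lists of cell type markers in each TAM library, with circles for replicate 1 and triangles for replicate 2. The macrophage, monocyte and neutrophil sums, and slightly the B cell sum, are higher in both propranolol libraries. The dendritic cell, T and NK cell, and stroma and endothelium sums are lower in both.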

How the data were processed

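Poly-adenylated RNA of sorted TAMs was sequenced in 4 libraries. The authors aligned paired reads to mm10 with STAR 2.7.1a, kept alignments with a mapping quality above 30 with SAMtools 1.9 and counted fragments on exons of GENCODE genes with featureCounts 1.6.4 (versions from the submitters' processing notes), and deposited raw counts per gene without normalization. The release of the annotation and a strand option are not given in the sources used here. The columns were matched to libraries by the numbers in the labels.

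Of 54146 identifiers, 54079 matched GENCODE M21 on GRCm38, which is mm10. In R 4.3.3, counts were normalized with TMM (factors 1.08 and 1.09 for control, 0.914 and 0.931 for propranolol), filtered with filterByExpr at a minimum count of 10, and compared with the quasi-likelihood test of edgeR 4.0.16 and Benjamini-Hochberg adjustment over 14688 genes. A gene was called at an adjusted p under 0.05 and more than 1.5-fold. Standard errors came from the coefficient and the F statistic. For GC content the longest transcript of a gene was used, and the trend was removed through offsets from a natural spline with 5 degrees of freedom for each library. Replicates differed beyond sampling noise (chi-square per degree of freedom 7.56 for control and 9.83 for propranolol). The steps were run on simulated counts that held no GC trend, so that run cannot show how well a real trend is removed. Alternatives used DESeq2 1.42.0, limma 3.58.1 (voom), glmTreat, other scaling, filters and thresholds, a replicate block and each library left out in turn.

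The receptors and gene lists were chosen with earlier results of these data known. The rule for named genes took all 10 receptors, every changed gene of the pathway and lectin lists up to the 8 largest fold changes a list (those beyond 8 in the lectin list, Thbd and Clec2d, were named to complete a count), Fcer1g, Tyrobp, Syk, Card9, Ptpn6 and Inpp5d, the most abundant gene and the defining markers of each cell type list, and the 3 nearest genes by profile of 2 receptors. Mgl2, Mrc1, S100a9, Il12b, Zbtb46, Batf3, Cd4, the genes called only with the GC trend removed and the named neighbours on the chromosome were chosen after their values were seen. Promoter windows came from RefSeq. A planned search for motifs in the proteins was not run.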

Additional observations from a re-analysis of the deposited data

How the results depend on the processing

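Clec4d was called higher under all alternatives run except the threshold of the study's methods, a log2 fold change above 1.5, which no receptor reached in the fit without GC correction (0 called). Of 150 comparisons of a receptor's fold change with its reported value, 117 kept both direction and call, 17 kept the direction but lost the call, 5 kept it and gained a call, and 11 changed sign. Among the 11, Clec4a2 gained a call in 3 and Clec4a3 lost its call in 1. Of the 10 receptors, 3 were called with the GC trend removed, 3 with the trend removed and a replicate block, 3 with the GC content of the longest protein-coding transcript (chosen after seeing the data), 1 with glmTreat against 1.5-fold (Clec4d) and 3 to 6 with a library left out.

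With the trend removed, with the block added and with the protein-coding transcript, the values were 0.49, 0.48 and 0.53 for Clec4n, 0.0647, 0.0621 and 0.0946 for Clec4a1, 0.85, 0.84 and 0.98 for Clec4a2, 0.45, 0.44 and 0.54 for Clec5a, -0.0447, -0.0508 and 0.0127 for Clec4a3, -0.12, -0.16 and -0.0546 for Clec7a and -0.22, -0.23 and -0.14 for Clec12a. Under glmTreat the adjusted p was 0.500 for Clec4e (0.64), 0.169 for Clec4a3 (-0.77), 0.151 for Clec7a (-0.90) and 0.0626 for Clec12a (-0.96). Upper-quartile factors put Clec4e at 0.58, just under the threshold, and Clec5a at -0.60, and called 1417 genes higher and 2533 lower where TMM gave 1798 and 2286. The cause of these shifts was not tested.
Leaving out each library in turn gave 0.86 to 1.18 for Clec4d, 0.52 to 0.84 for Clec4e, 0.21 to 0.69 for Clec10a, -0.0487 to 0.34 for Clec4n, -0.57 to -0.14 for Clec4a1, -0.64 to -0.22 for Clec4a2, -0.82 to -0.28 for Clec5a, -0.96 to -0.58 for Clec4a3, -1.37 to -0.53 for Clec7a and -1.26 to -0.68 for Clec12a. Clec10a was called without control replicate 1, Clec5a without control replicate 2 or propranolol replicate 1, and Clec4a2 without propranolol replicate 1, while Clec4e, Clec4a3 and Clec7a lost their calls as stated beside their values. Clec4n changed sign without propranolol replicate 1. A library left alone in its group was taken to vary as much as the other group does. With a library left out, 3615 to 4329 of all tested genes, 1 to 2 inhibitors, 5 to 6 signalling genes, 5 to 7 target genes and 8 to 10 other lectins were called.

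Over all tested genes, 4084 were called, against 1856 with the GC trend removed, 2130 with the block added, 1601 with the protein-coding transcript, 1093 with glmTreat, 6204 on the adjusted p alone and 728 above a log2 fold change of 1.5. The signalling list had 3 calls with upper-quartile factors, 1 with glmTreat, 1 with the protein-coding transcript, 18 on the adjusted p alone and 0 above 1.5 on the log2 scale. The inhibitor list had 0 with the trend removed, with or without the block, with the protein-coding transcript, with glmTreat and above 1.5, and 5 on the adjusted p alone. The target list had 4 with upper-quartile factors, 2 with glmTreat and 0 above 1.5. The other lectins had 3 with glmTreat, 6 with the protein-coding transcript and 4 above 1.5.

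The replicate block alone (4362 genes) changed no call of a receptor. Same-numbered libraries had within-group deviations correlated at 0.1694 across genes, and with 2 pairs the numbers do not establish pairing. With the length of the longest transcript, mean levels were 18.2 TPM for Clec4e, 207 for Clec4n, 228 for Clec4a1, 62.4 for Clec5a, 182 for Clec4a3 and 95.2 for Clec12a, against 22.8, 265, 294, 78.6, 231 and 71.9 TPM. Depth limits the scarce genes, such as Cxcl1 and Ly6g, more than the receptors.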
